A study of Mus musculus with 6 samples.

Results

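Hypoxia-responsive genes were examined in cultured mouse keratinocytes that had lost Gpx4, the enzyme that reduces lipid hydroperoxides in membranes. The 10 genes were Adm, Vegfa, Hif1a, Egln1, Egln3, Bnip3, Ndrg1, Ddit4, P4ha1 and Car9, taken as every probe set on the arrays annotated to 1 of these symbols alone, which gave 22 of 45037 tested probe sets and 10 of 18193 genes. Adm was chosen by its higher intensity in the knockout on these same arrays, so its difference is given as a description with no test. The other 9 were included as known members or targets of the hypoxia pathway, to ask whether the difference in Adm was one of many in that pathway.

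The cells were isolated from newborn skin, and the genetic background was C57BL6/FVB. In the group labelled Gpx4 KO the gene had been removed by K14-cre, a recombinase under a promoter active in basal keratinocytes, and the other group was labelled control, with no further allele named. Keratinocytes of littermates were pooled by genotype, and litters A, B and C gave 3 control and 3 knockout arrays, all from medium with 100 nM sodium selenite, a selenium source for selenoproteins. The part of Gpx4 that was deleted is not given, so the signal left in the knockout does not count undeleted cells.

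Levels are quantile-normalized linear intensities, and a log2 change is the knockout level less the control level on log2(intensity + 16), with its SE. It was fitted in limma over all probe sets, with litter as a block. A gene is represented by the probe set with the highest mean over the 6 arrays, and a change passed at a limma p adjusted over all probe sets below 0.05. Gpx4 was 496.9 to 550.9 in controls and 212 to 259.7 in knockouts (log2 change -1.15 ± 0.091, adjusted p = 0.0206). Before normalization the trimmed mean intensity of an array lay between 72.8 and 114.3, the control of litter C being the brightest, and the share of an array's probe sets with an intensity under 16 was 45.4% to 50.1%. The keratinocyte marker Krt5 was 6595.7 to 7048.9 and Krt14 was 6278.1 to 6808.4 over all arrays. Of 6 keratinocyte markers 1 passed: Krt10, a keratin of differentiating layers, fell (-1.42 ± 0.084, adjusted p = 0.00922). Krt1, its partner keratin, had a log2 change of -1.21 ± 0.22 and the basal factor Trp63 one of -0.43 ± 0.076 without overlap (adjusted p = 0.0836 and 0.0816). Sums over 6 fibroblast markers were 144.4, 154.6 and 444 in control pools A, B and C, against 321.4, 399.5 and 498.4 in knockout pools, so by this sum the control of litter C lay with the knockouts. Not every marker followed the sum. Dcn was 12.3, 33 and 24.6 in controls and 20.8, 22.9 and 18.9 in knockouts, and Lum was under 16 on all arrays. Sums over 5 melanocyte markers were 4045.4 to 4237.2 in controls and 5779.8 to 6328.4 in knockouts. Of the 5, 2 passed upwards, Tyrp1 (0.69 ± 0.078, adjusted p = 0.038) and Mlana (1.11 ± 0.14, adjusted p = 0.0429). Of 6 endothelial markers 5 were under 16 on all arrays, and of 5 immune markers 3. The Y-linked Eif2s3y was 155.5 to 185.3 in controls and 0.667 to 4.62 in knockouts, and Xist 388.9 to 536.1 and 1213.9 to 1259.8, so genotype and the sex of the pups in a pool cannot be told apart. In bulk RNA, fewer cells of a type and less RNA per cell cannot be told apart either. The part of these markers in the results below was not tested.

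Cells sense oxygen through prolyl hydroxylases, which mark the alpha subunits of the hypoxia-inducible factors (HIF) for destruction while oxygen is present. When oxygen is short the alpha subunit accumulates, pairs with Arnt and binds hypoxia response elements, whose core is ACGTG or GCGTG. HIF activity is set mainly by the stability of the protein, so the mRNA of the subunits is not a measure of it, and target mRNAs are its usual readout. In skin the pathway is known for glycolytic metabolism in the poorly supplied epidermis and for signals to blood vessels.

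Promoter sequences of 9 of the 10 genes were found in the RefSeq table of build GRCm38.p6, with Ndrg1 unmatched. Each runs from 250 bases before to 50 bases after an annotated start. Those of 3 genes are shown because they set side by side the gene with the highest log2 change (Adm), the gene with the most matches to the core (Bnip3) and a gene with 3 matches and a small log2 change (P4ha1). Capitals mark ACGTG or GCGTG on either strand, and the 2 strands overlap where the letters read CACGTG.
Adm, chr7:110627407-110627706, plus strand: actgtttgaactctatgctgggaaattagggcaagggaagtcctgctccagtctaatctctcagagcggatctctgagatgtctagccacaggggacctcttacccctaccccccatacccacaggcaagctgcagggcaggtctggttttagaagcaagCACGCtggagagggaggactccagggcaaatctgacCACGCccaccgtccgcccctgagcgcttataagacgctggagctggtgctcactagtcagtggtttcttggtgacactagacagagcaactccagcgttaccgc
Bnip3, chr7:138909457-138909756, minus strand: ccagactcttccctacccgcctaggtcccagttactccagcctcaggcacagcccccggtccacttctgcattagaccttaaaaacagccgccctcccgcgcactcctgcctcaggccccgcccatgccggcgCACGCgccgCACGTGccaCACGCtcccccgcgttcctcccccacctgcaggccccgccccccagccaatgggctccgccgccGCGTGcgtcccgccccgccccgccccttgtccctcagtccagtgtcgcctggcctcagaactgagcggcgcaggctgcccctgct
P4ha1, chr10:59323046-59323345, plus strand: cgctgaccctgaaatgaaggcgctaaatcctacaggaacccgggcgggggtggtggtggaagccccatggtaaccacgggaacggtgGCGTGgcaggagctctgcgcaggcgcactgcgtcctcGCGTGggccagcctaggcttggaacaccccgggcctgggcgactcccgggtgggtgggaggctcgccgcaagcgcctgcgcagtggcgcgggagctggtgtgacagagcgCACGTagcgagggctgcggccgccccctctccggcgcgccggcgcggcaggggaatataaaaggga
The Adm promoter held 2 matches, both on the reverse strand, beginning 90 and 54 bases before the start. Bnip3 held 5 and P4ha1 held 3. Of the 10 promoters listed for the 9 genes 9 held at least 1 match, and 70% held 2 or more. The exception was the upstream of the 2 Vegfa promoters (chr17:46032328-46032627, minus strand). The 2 Vegfa matches lay at the other annotated start, further inside the gene (chr17:46025114-46025413), and count in both shares. Whether that inner start is used in these cells was not tested. Of the 18109 promoters of this length of genes on the arrays, 54.6% held at least 1 match and 28% held 2 or more. The members' promoters had 65.7% G and C against 58.4%, and the part of base composition in the share was not tested. A match describes letters only and shows no binding.

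Adm, which encodes the vasodilator and epithelial peptide adrenomedullin, had the highest log2 change of the 10 genes. Its intensity was 102.3, 123.2 and 238.5 in control pools A, B and C, against 467, 506.7 and 502.5 in knockout pools. The groups did not overlap, and the control of litter C was the highest of the controls while the 3 knockouts were alike. The log2 change was 1.65 ± 0.20 (3.15-fold), made up of 2.03 in litter A, 1.91 in B and 1.03 in C. This probe set is of a kind whose probes can match other transcripts. The other Adm probe set gave 68.3, 78 and 183.8 in controls and 267.2, 308.9 and 357.3 in knockouts, a log2 change of 1.48 ± 0.19, again without overlap. The smaller difference in litter C came with a control 0.99 above the mean of the other controls on the log2 scale, whereas its knockout lay 0.045 above the mean of the other knockouts.

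Receptors and processing enzymes of adrenomedullin showed no change that passed. Adrenomedullin acts through the receptor Calcrl paired with Ramp2 or Ramp3, and the related peptide Adm2 uses the same receptors. Of 8 measured genes of this system (Calca unmatched) 0 passed in limma. At an unadjusted p under 0.05, 0 were higher and 2 lower, beside 8.66% and 9.45% of all genes. The 8 had a median log2 change of -0.057 against 0.00039 over all 18193 genes. Calcrl was under 16 on all 6 arrays, Ramp1 on 5, and Ramp2, Ramp3 and Calcb on 4 each. Values this dim carry little on the receptors. Ackr3, a scavenging receptor for Cxcl12 that also binds adrenomedullin, was 618.4, 772.6 and 139.4 in controls and 158.2, 184.4 and 179.9 in knockouts. Both controls of litters A and B were high and the control of litter C lay with the knockouts (log2 change -1.17 ± 0.43, adjusted p = 0.289). Without litter C Ackr3 passed at -1.92 (adjusted p = 0.000277). Adm2 was 37.1, 53.5 and 66.9 in controls and 93.7, 87.7 and 60.9 in knockouts (0.50 ± 0.23, adjusted p = 0.37), and passed without litter C (0.81, adjusted p = 0.0397). In that fit 1 of the 8 passed upwards and 1 downwards, beside 4.19% and 4.52% of all genes. Ramp1 was 17.9 or less on every array (-0.54 ± 0.15, adjusted p = 0.175), and with the mean of its probe sets the log2 change was 0.028.

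**Figure D1:**
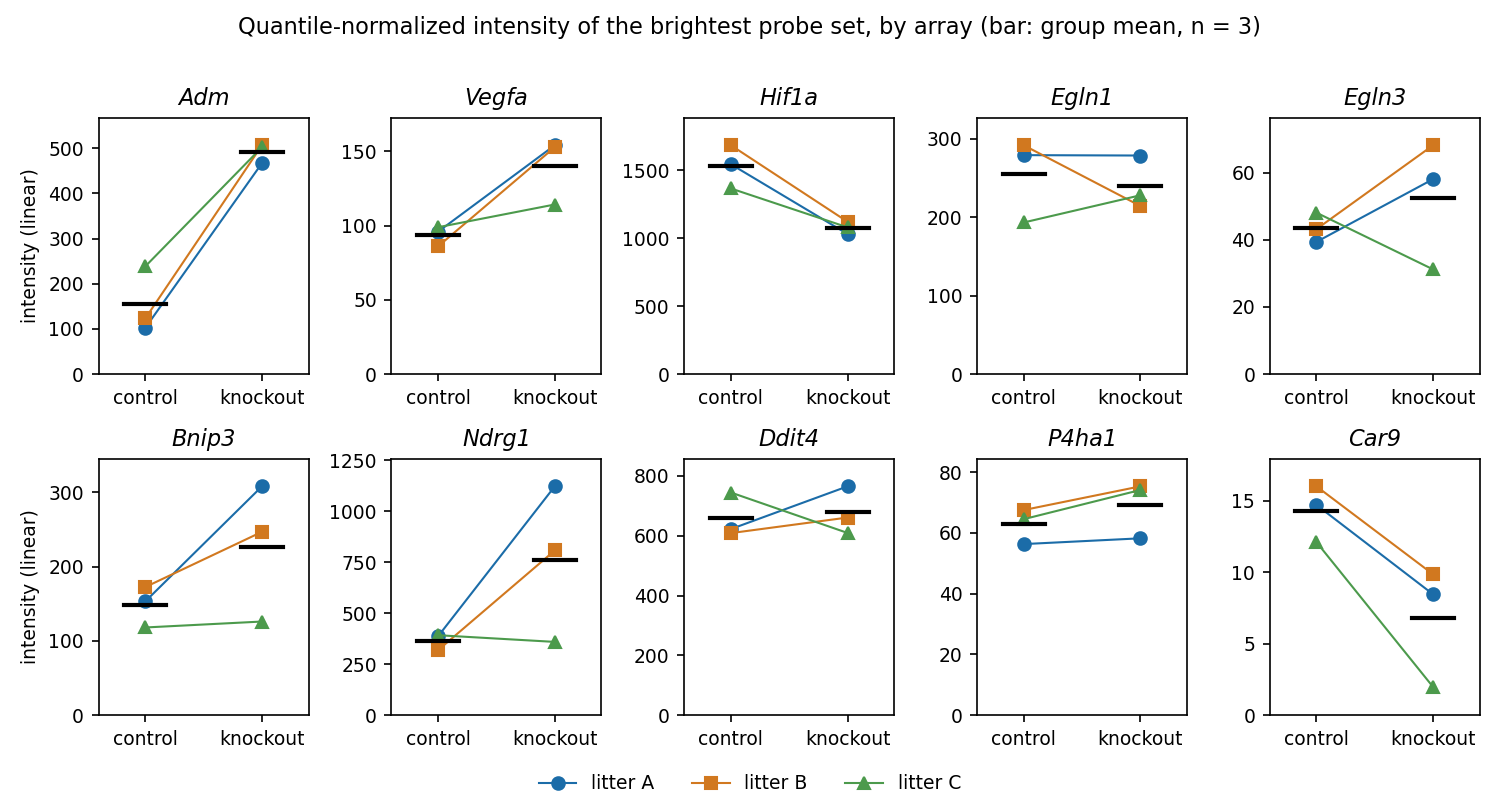
Quantile-normalized intensity (linear, y axis from 0) of the brightest probe set of each of the 10 genes in control and knockout arrays, lines joining the arrays of a litter and bars giving group means (n = 3). Adm and Vegfa are higher in all 3 knockouts than in any control, Hif1a and Car9 are lower, and the litter C knockout of Ndrg1 (359.6) and Bnip3 (126) stays near the controls.

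Over the other 9 genes 0 passed in limma, where 0.616% of all genes and 0.42% of all probe sets passed. At an unadjusted p under 0.05, 3 were higher (Vegfa, Bnip3 and Ndrg1) and 2 lower (Hif1a and Car9). Of all genes 18.1% were below that p, 8.66% higher and 9.45% lower. Groups did not overlap for 1 of the 9 genes upwards, Vegfa, and for 2 downwards, Hif1a and Car9. Among all genes 9.81% did so upwards and 10.8% downwards, 20.6% in all. The median log2 change of the 9 genes was 0.11 (0.29 in litter A, 0.13 in B and -0.12 in C), against 0.00039 over all genes.

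None of the genes of HIF itself and of its oxygen sensors passed in limma. Hif1a, the alpha subunit of the main HIF, was 1544.2, 1684 and 1365.9 in controls and 1031, 1121 and 1080 in knockouts. All 3 knockouts lay below all 3 controls (log2 change -0.50 ± 0.084, 95% interval -0.70 to -0.29, adjusted p = 0.0772). The change did not pass, and it passed without litter C (-0.58, adjusted p = 0.0072) and when the 40% dimmest probe sets were left out (-0.50, adjusted p = 0.0237). Of its 3 other probe sets 2 gave -0.75 ± 0.21 and -0.45 ± 0.11 without overlap, as 9.43% of all probe sets did downwards, and the remaining one was under 16 on all arrays. Egln1, the main HIF prolyl hydroxylase, was 279.2, 291.8 and 193.3 in controls and 278.7, 214.4 and 228 in knockouts, with full overlap (-0.066 ± 0.14, interval -0.40 to 0.27). Its other probe set gave 0.19 ± 0.15, so the sign differs between the 2. Egln3, a prolyl hydroxylase that is itself a HIF target, was 39.4, 43.2 and 48.1 in controls and 58.1, 68.2 and 31.2 in knockouts. It was higher in litters A and B and lower in litter C (0.16 ± 0.22, interval -0.36 to 0.69).

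Of 16 further genes for HIF subunits, their degradation and their cofactors 0 passed in limma. At an unadjusted p under 0.05, 0 were higher and 3 lower, beside 8.66% and 9.45% of all genes. Of the 16 log2 changes 14 were below 0 (median -0.093), as were 9086 of 18193 over all genes. Arnt, the partner of both alpha subunits, was 118.9, 120.9 and 122.4 in controls and 82.7, 92.9 and 85.4 in knockouts, without overlap (-0.41 ± 0.11, adjusted p = 0.179), and its log2 change was -0.15 with the mean of probe sets. Epas1, which encodes the alternative alpha subunit, was 253.4, 261.6 and 65.3 in controls and 80.7, 61.9 and 54.6 in knockouts. The control of litter C was again with the knockouts (-1.17 ± 0.30, adjusted p = 0.156), and Epas1 passed without litter C (-1.66, adjusted p = 0.00138). In that fit 0 of the 16 passed upwards and 1 downwards, beside 4.19% and 4.52% of all genes. Elob, a subunit of the ubiquitin ligase that binds hydroxylated HIF, had a log2 change of -0.21 ± 0.074 (adjusted p = 0.27).

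Vegfa, the main growth factor for blood vessels, was 95.9, 86 and 98.9 in controls and 154.1, 152.8 and 114.2 in knockouts. The groups did not overlap, and litter C differed least (0.50 ± 0.14, interval 0.16 to 0.84, adjusted p = 0.186; 0.60, 0.73 and 0.18 by litter). Its other probe set gave 0.44 ± 0.19 with overlap. Vegfa passed without litter C (0.67, adjusted p = 0.0227). Of 11 further genes listed as angiogenic or vasoactive targets, among them relatives of Vegfa such as Vegfb, 0 passed in limma. At an unadjusted p under 0.05, 3 were higher and 1 lower, beside 8.66% and 9.45% of all genes. The median log2 change of the 11 was 0.0049, and it was -0.12 without litter A. Pdgfb, a growth factor for pericytes, was 213.7, 241.9 and 235.2 in controls and 85.5, 131.9 and 165.6 in knockouts, without overlap (-0.82 ± 0.15, adjusted p = 0.0881). Edn1, the vasoconstrictor endothelin, was higher in the knockout of each litter (0.41, 0.89 and 0.38), although its control of litter C (248.8) exceeded the knockouts of litters A and B (131.7 and 205.8). The lymphatic growth factor Vegfc was 0.767 to 18.8 in controls and 16 to 31.2 in knockouts (0.70 ± 0.22, adjusted p = 0.227; 1.83 with a pseudocount of 1, 0.26 with 64). Without litter C Pdgfb passed downwards (-0.99) and Edn1 (0.65) and Vegfc (0.99) upwards, with adjusted p of 0.00812, 0.0492 and 0.0286. In that fit 3 of the 11 passed upwards and 1 downwards, beside 4.19% and 4.52% of all genes.

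Ndrg1, a stress-responsive gene also linked to epithelial differentiation, was the member whose litters differed most. Its intensity was 387.4, 319.1 and 392.4 in controls and 1123, 808.3 and 359.6 in knockouts. The knockouts of litters A and B were far above the controls and that of litter C lay among them (log2 changes 1.50, 1.30 and -0.12). Over the 3 litters the change was 0.89 ± 0.30 (interval 0.18 to 1.60, adjusted p = 0.247), and without litter C it was 1.40 and passed (adjusted p = 0.000567). All 5 Ndrg1 probe sets had log2 changes between 0.86 and 1.04, and all 5 had adjusted p between 0.149 and 0.309. In 2 of them the groups did not overlap, as in 8.79% of all probe sets upwards, the knockout of litter C lying just above the controls (368.4 against 353.5 at most in one, 170.6 against 155.2 in the other).

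Bnip3, a mitochondrial protein that starts mitophagy, followed the same order of litters. It was 153.1, 172.4 and 118 in controls and 307.9, 246.7 and 126 in knockouts (0.94, 0.48 and 0.084 by litter). The groups overlapped through litter C, which was lowest in both (0.50 ± 0.17, interval 0.095 to 0.91, adjusted p = 0.254), and Bnip3 passed without litter C (0.71, adjusted p = 0.0264). In litter C the knockout lay 1.37 (Ndrg1) and 1.04 (Bnip3) below the mean of the other knockouts on the log2 scale, and the control 0.15 above and 0.41 below the other controls. In Adm it was the control of litter C that stood apart, and in these genes its knockout.

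Ddit4, an inhibitor of the growth kinase mTORC1 that responds to hypoxia and to other stress, was 622.4, 608.9 and 744.6 in controls and 765.2, 660.9 and 609.4 in knockouts. The groups overlapped fully (0.041 ± 0.12, interval -0.25 to 0.33), and the sign turned under other scalings (-0.13 as deposited, -0.067 with arrays shifted to the same median).

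Among 22 further targets in mitophagy, growth and feedback (Bnip3l unmatched) 1 passed in limma, downwards, as 0.401% of all genes did. At an unadjusted p under 0.05, 3 were higher and 4 lower, beside 8.66% and 9.45% of all genes. Insig2, a sterol sensor that restrains cholesterol synthesis, fell from 434.3, 429.7 and 480.6 to 241.4, 276.2 and 284.5 (-0.71 ± 0.091, adjusted p = 0.0448), and did not pass as deposited (-0.90, adjusted p = 0.268). Leaving out litter A gave -0.67 and leaving out litter B -0.77, neither of which passed (adjusted p = 0.318 and 0.432). In these fits 0.011% and 0% of all genes passed. Wsb1, a ubiquitin ligase subunit, was 341.4, 350.6 and 433.1 in controls and 634.6, 580.5 and 585.8 in knockouts, without overlap (0.66 ± 0.11, adjusted p = 0.0724). Car12, a membrane carbonic anhydrase, was 145.2, 162.2 and 101.8 in controls and 50.4, 56.5 and 59 in knockouts, without overlap (-1.08 ± 0.17, adjusted p = 0.065). Without litter C Wsb1 (0.78, adjusted p = 0.00505), Car12 (-1.29, adjusted p = 0.00311) and Insig2 (-0.71, adjusted p = 0.00912) passed. In that fit 4 of the 22 passed upwards and 2 downwards, beside 4.19% and 4.52% of all genes. Car12 was -0.58 with the mean of probe sets, and with arrays shifted to the same median it passed (-1.18, adjusted p = 0.0039). The median of these 22 was 0.11.

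**Figure D2:**
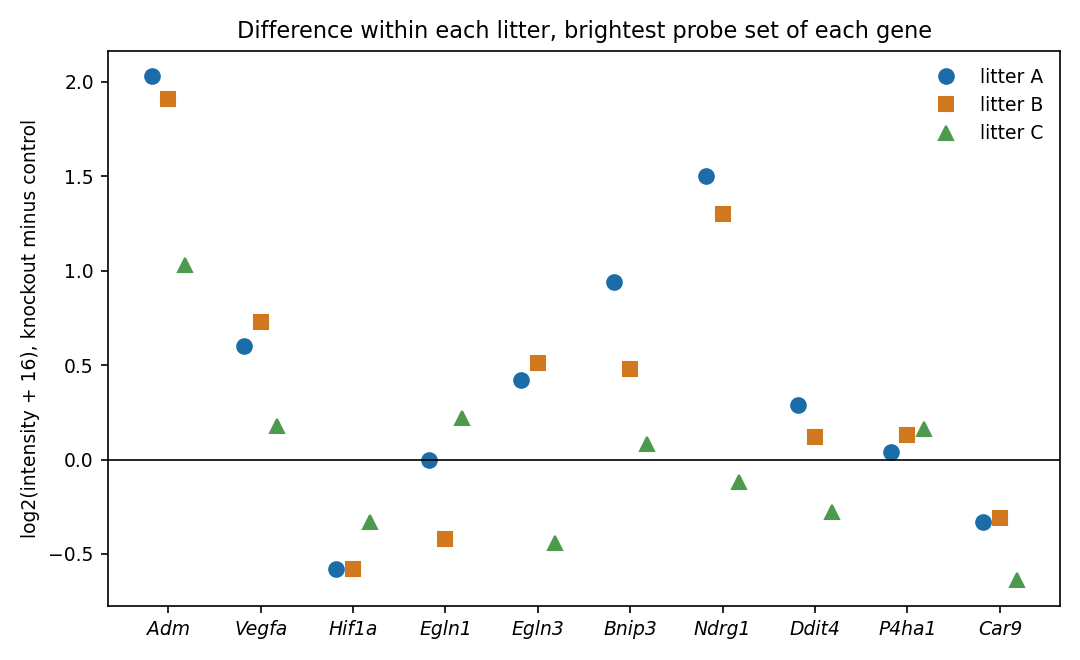
Log2 difference between the knockout and the control of 1 litter (y axis) for the brightest probe set of each gene (x axis), 1 symbol a litter. Adm is above 1 in all 3 litters, Ndrg1 is above 1 in litters A and B and at -0.12 in litter C, and Hif1a is below 0 in all 3.

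P4ha1, a catalytic subunit of the prolyl hydroxylase that stabilises collagen, was 56.3, 67.5 and 64.5 in controls and 58.2, 75.3 and 74.1 in knockouts. The groups overlapped (0.11 ± 0.13, interval -0.19 to 0.41), its other probe set gave -0.065 ± 0.15, and the sign turned as deposited (-0.074) and with arrays shifted to the same median (-0.015). Of 6 further collagen-modifying genes (Loxl2 unmatched) 0 passed in limma. At an unadjusted p under 0.05, where 8.66% of all genes were higher and 9.45% lower, 1 was higher and 0 lower. That gene was Lox, which crosslinks collagen, at 5.03, 1.63 and 23.9 in controls and 42.4, 27.2 and 40.9 in knockouts, without overlap (1.09 ± 0.23, adjusted p = 0.109). With 2 controls under 16 the size of the Lox change rests on the pseudocount too (2.34 with 1, 0.45 with 64). Its control of litter C was the highest control, as in the sum of fibroblast markers. Plod2, a lysyl hydroxylase of collagen, had a log2 change of 0.36 ± 0.15 and P4ha2, a relative of P4ha1, one of 0.23 ± 0.18 (adjusted p = 0.355 and 0.623). Without litter C Lox (1.38, adjusted p = 0.0117) and Plod2 (0.54, adjusted p = 0.0469) passed. In that fit 2 of the 6 passed upwards and 0 downwards, beside 4.19% and 4.52% of all genes.

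Car9, a surface carbonic anhydrase that is among the most specific HIF targets, was at the level of the dimmest probe sets. It was 14.7, 16 and 12.1 in controls and 8.45, 9.85 and 1.97 in knockouts. The groups did not overlap, but 5 of the 6 values were under 16, where 45.4% to 50.1% of an array's probe sets lie, and the size of the difference rests on the pseudocount (-0.43 ± 0.14 with 16, -1.17 with 1, -0.15 with 64; adjusted p = 0.254 with 16).

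Glucose transport and glycolysis, the best known output of HIF, were described from 16 genes (Gapdh and Eno1 unmatched). In limma 0 passed, and the median log2 change was -0.0053, with 8 genes above 0 and 8 below. The brightest genes of the list were Ldha (-0.022 ± 0.068), Pgk1 (-0.11 ± 0.076), Aldoa (0.092 ± 0.073), Tpi1 (-0.088 ± 0.079) and Slc2a1 (0.012 ± 0.074). The 3 genes described below are those with the smallest unadjusted p. At an unadjusted p under 0.05, 4 were higher and 1 lower, beside 8.66% and 9.45% of all genes. Slc2a3, a high-affinity glucose transporter, was 8.43, 10.2 and 20.6 in controls and 34.7, 135 and 226.4 in knockouts. The groups did not overlap (2.10 ± 0.33, adjusted p = 0.0667). With 2 controls under 16 the size of the Slc2a3 change rests on the pseudocount (2.97 with 1, where it passed with adjusted p = 0.0157, and 1.22 with 64), and it was 1.11 with the mean of probe sets. Hk2, the inducible hexokinase, was 108.1, 115.2 and 311.7 in controls and 266.8, 294 and 326.6 in knockouts (0.83 ± 0.23, adjusted p = 0.186). Its control of litter C was again as high as the knockouts. Aldoc, an aldolase, was 114.8, 133.5 and 60.5 in controls and 38.7, 37.6 and 44 in knockouts (-1.03 ± 0.23, adjusted p = 0.126). Without litter C the 3 passed (1.79, 1.21 and -1.37, adjusted p = 0.0297, 0.00179 and 0.00414). In that fit 4 of the 16 passed upwards and 1 downwards, beside 4.19% and 4.52% of all genes.

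Among 6 relatives of the members 0 passed in limma, and the median was -0.17. At an unadjusted p under 0.05, 1 was higher and 0 lower, beside 8.66% and 9.45% of all genes. Ddit4l was 38.9, 28.4 and 32.4 in controls and 64.5, 51.4 and 35.3 in knockouts (0.41 ± 0.17, adjusted p = 0.336). Ndrg2, a relative of Ndrg1, had the opposite sign to it (-0.21 ± 0.11, adjusted p = 0.44), and Car2 was at or under 22.4 on all arrays (-0.45 ± 0.22, adjusted p = 0.405).

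**Figure D3:**
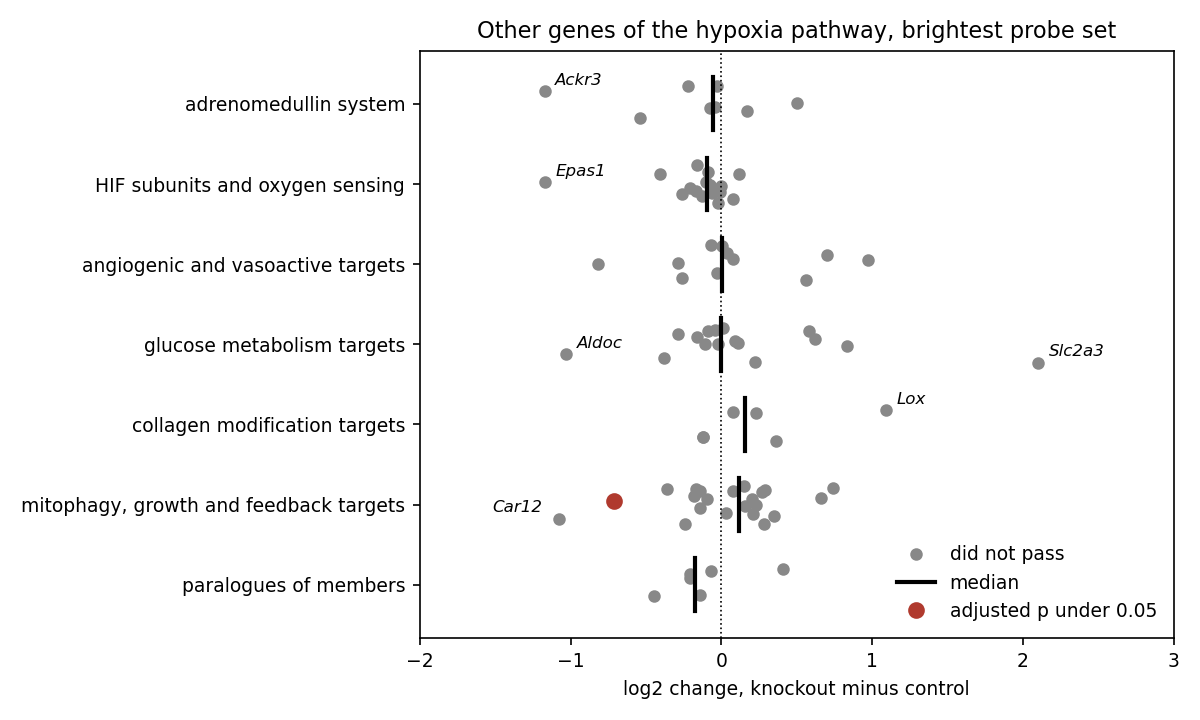
Log2 change, knockout minus control (x axis), of the brightest probe set of each measured gene in 7 lists (rows), with a bar at the list's median and names for changes beyond 1 in either direction. Insig2 is the 1 gene of 85 that passed, and the medians lie between -0.17 and 0.16.

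Over the 7 lists 85 of 92 genes were measured and 1 passed, downwards, beside 0.616% of all genes. At an unadjusted p under 0.05, 12 were higher and 11 lower. Groups did not overlap upwards for 9 and downwards for 11 of the 85. Over all genes 8.66% were higher and 9.45% lower at that p, and groups did not overlap for 9.81% and 10.8%. Of the 55 genes of the 4 target lists, 11 were higher and 6 lower at that p. These lists also hold relatives of targets, such as Vegfb, so not each of the 55 is an established HIF target. Groups of these 55 did not overlap upwards for 9 and downwards for 7. In the 85 and in the 55 the counts at that p lie above the shares over all genes, more so upwards, and no set test was run. The median log2 change of the 85 was -0.039, and that of the 55 was 0.039.

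Litter C weighed on most of these values. Without it 4 of the 9 members passed in limma, Ndrg1, Vegfa and Bnip3 upwards and Hif1a downwards, where 8.72% of all genes passed, 4.19% upwards and 4.52% downwards. Of the 85 list genes 14 then passed upwards and 7 downwards. Egln1, Egln3, Ddit4, P4ha1 and Car9 did not pass in this fit (adjusted p = 0.406, 0.158, 0.244, 0.824 and 0.414). Leaving out litter A, and likewise litter B, 0 of the 9 passed in limma, where 0.011% and 0% of all genes passed.

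**Figure D4:**
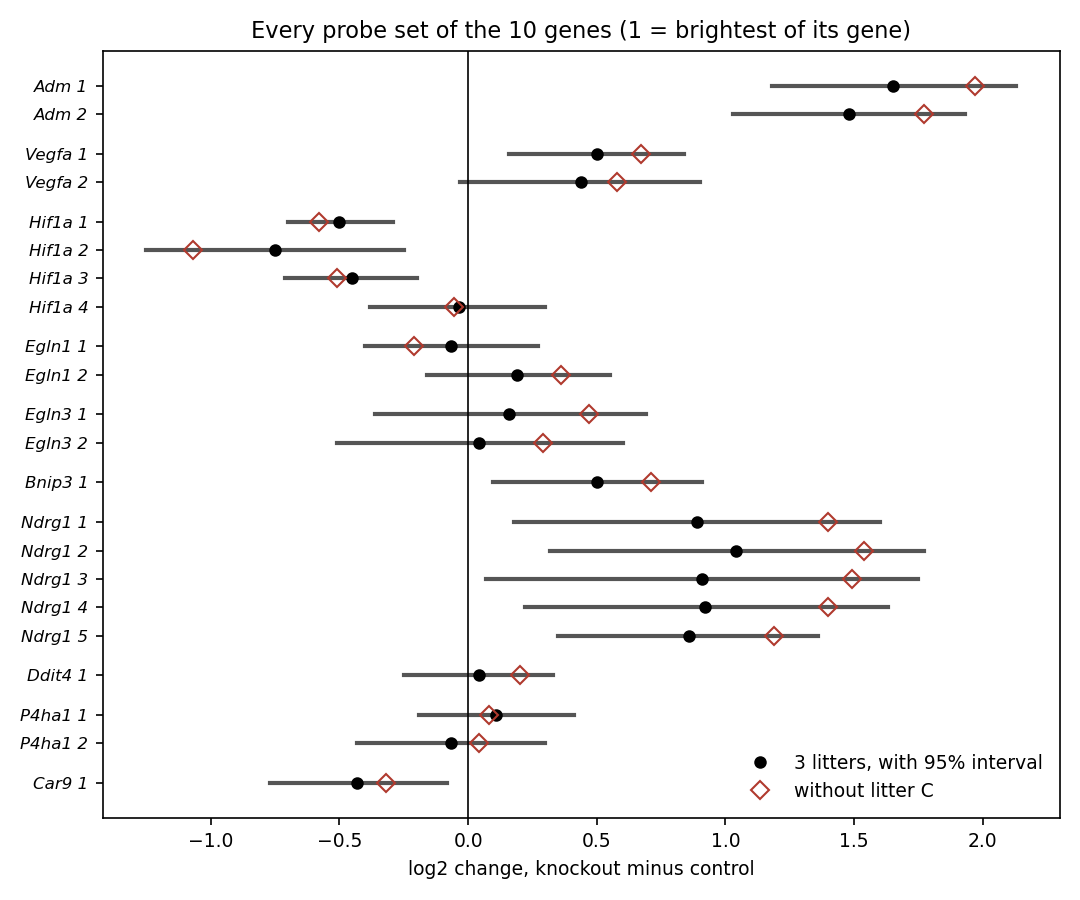
Log2 change, knockout minus control (x axis), of all 22 probe sets of the 10 genes (rows, 1 being the brightest of its gene), as points with 95% intervals from limma over 3 litters and as open diamonds without litter C. The 5 Ndrg1 probe sets lie between 0.86 and 1.04 and move to 1.19 to 1.54 without litter C, while P4ha1 stays within 0.11 of 0.

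The genes whose pattern over the 6 arrays was most like that of Adm were Axl, a receptor kinase, Dock9, Vgll3, a cofactor of TEAD transcription factors, the nucleolar protein Ncl and Stambpl1. Their Pearson r with Adm on the log2 scale lay between 0.997 and 0.999 among 10699 genes compared, over 6 arrays that fall into the same 2 groups, and none of them is a member or a list gene. Axl was 519.4 ± 91 in controls and 819.8 ± 28.7 in knockouts (mean ± SD, n = 3, log2 change 0.66), and the log2 changes of the 5 ran from 0.39 to 0.76.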

How the data were processed

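Messenger RNA was measured with 1-colour arrays on biotin-labelled targets, per the labels' protocols. The deposited values are linear intensities, 1 for each probe set on each array. The background correction, probe summary and scaling used by the authors are not given in the sources. The 64 control probe sets were left out, and the rest were quantile-normalized and then, after adding 16 and taking log2, tested with limma 3.58.1 (R 4.3.3; lmFit, eBayes with a trend, two-sided, Benjamini-Hochberg over 45037 probe sets, threshold 0.05). A pseudocount understates the change of dim genes, and the number of arrays limits precision. Litter was a block because the submitters compared pools of 1 litter. The residuals of the 2 arrays of a litter had correlations of 0.175 (A), 0.0474 (B) and 0.207 (C). The fit was tested on 10 simulated data sets with 200 probe sets changed, all brighter than the median, and noise drawn from the fit's own variance estimates. It found 41% of 2-fold and 92.8% of 4-fold changes, and 3.11% of its calls were false. A real change of 2-fold or less can therefore fail to pass.

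Symbols came from the platform annotation, updated through a RefSeq table (34945 probe sets with 1 gene, 932 with several, 9160 with none). Members and lists were chosen with earlier results of these data known. Named were Gpx4, all members, every passing list gene, otherwise the 3 of a list with the smallest unadjusted p, and the 5 genes most like Adm among those brighter than the median. Alternatives were the scaling, the block, the pseudocount, a filter on dim probe sets, the mean of a gene's probe sets, the trend, and leaving out litters or arrays.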

Additional observations from a re-analysis of the deposited data

How the results depend on the processing

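With 3 arrays a group, depth is set by signal over background, and genes near an intensity of 16, such as Car9, carry little. In 17 alternative settings Adm, Vegfa, Ndrg1 and Bnip3 stayed above 0 and Hif1a and Car9 below it, with Adm between 1.40 and 1.98, Hif1a between -0.67 and -0.43 and Ndrg1 between 0.55 and 1.40.

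The number of probe sets that passed, 189, was 35 as deposited, 710 with arrays shifted to the same median, 601 with a pseudocount of 1, 59 with 64, 1136 without the dimmest 40%, 6 without the trend and 135 with no replicate block, and lay between 0 and 2773 when 1 litter or array was omitted. Among the 9 members other than Adm the count was 0, and it was 1 (Hif1a) without the dimmest 40% and 0 to 4 when 1 litter or array was omitted. In the lists the count of 1 became 0 as deposited, with a pseudocount of 64, with the mean of probe sets or without the trend, 7 with arrays shifted to the same median, 4 with a pseudocount of 1 and 8 without the dimmest 40%, and 0 to 21 when 1 litter or array was omitted. The median of the lists, -0.039, was -0.15 as deposited, -0.09 with arrays shifted, -0.073 with a pseudocount of 1 and -0.071 to -0.0098 when 1 litter or array was omitted. As deposited, the median of all probe sets was -0.066.

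Among the members and the list genes chosen by a pass or by the smallest unadjusted p, signs turned for 5 genes. Ddit4 was -0.13 as deposited and -0.067 with arrays shifted, and ran from -0.084 to 0.20 when 1 litter or array was omitted. P4ha1 was -0.074 and -0.015 in those scalings. Egln1 was 0.063 with the mean of probe sets and ran from -0.24 to 0.11 when 1 litter or array was omitted, Egln3 from -0.0098 to 0.47, and Ramp1 was 0.028 with the mean of probe sets. Other list genes, which were not followed through all settings, turned too, such as Slc2a1 (0.012, and -0.15 as deposited). The replicate block changed no call among the 9 members. The leave-outs show how far a value depends on 1 litter or array, and the causes were not tested.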
